A study of Mus musculus with 8 samples.

Results

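The effect of a Foxp3 guide RNA on mouse regulatory T (Treg) cells that were not restimulated was described across genes, by comparing the 2 libraries with the Foxp3 guide with the 2 libraries with the negative control guide at 0 h. These are 4 of the 8 RNA-seq libraries of the study, chosen by guide and time as labelled. The control cells were sgNC in RosaCas9/+ Foxp3gfp and the edited cells sgFoxp3 in RosaCas9/+ Foxp3gfp, so Cas9 and a green fluorescent Foxp3 reporter were shared by both groups. CD4 T cells were enriched from spleen and lymph nodes, GFP-positive natural Treg (nTreg) cells were sorted, and the cells were cultured ex vivo and mock-treated with DPBS, a salt buffer. The other 4 libraries held the same cells 3 h after stimulation through the T cell receptor (TCR) and serve to estimate the spread and to compare the guide effects at the 2 times. Age and sex of the mice, the guide sequences, the way the guide was delivered and the length of culture are not given in the sources used here. The labels name no clone, so each library is treated as a population of edited cells, and they do not say whether replicates came from separate animals or cultures. The p-values accordingly rest on differences among these libraries that may be purely technical.

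Foxp3 is the transcription factor that defines Treg cells. It acts in complexes with partners such as the Runx factors and Helios, and humans and mice born without it develop fatal autoimmunity. Treg cells make little IL-2 of their own and depend on IL-2 from other cells, which is read by the high-affinity receptor and passed on through JAK kinases and STAT5. STAT5 in turn maintains Il2ra, Cish and Foxp3 itself. In T cells, IL-2 and the TCR also drive the D-type cyclins, which lead to phosphorylation of the RB proteins and release of the E2F factors for DNA replication, after which a separate set of genes is switched on for mitosis.

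Library totals were 38729009 and 42698042 expected counts with the control guide and 66804803 and 64135431 with the Foxp3 guide. The first principal component of the 4 libraries held 85.3% of the variance and parted the guides. The second held 8.80% and parted the 2 control libraries. Markers of the T cell lineage summed to 2262 and 2294 CPM (counts scaled to a common library size) with the control guide and 2379 and 2382 with the Foxp3 guide. In bulk samples, fewer cells of a type and less RNA per cell cannot be told apart, and this holds for every level given here.

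Of 16642 genes with enough counts, 10539 (63.3%) were called between the guides, at an adjusted p below 0.05 in edgeR's quasi-likelihood test. With the Foxp3 guide 5694 genes were higher (34.2% of those tested) and 4845 were lower (29.1%). At least 2-fold changes were called in 2586 genes (15.5%), of which 1532 were higher (9.21%) and 1054 lower (6.33%). A small change in these libraries therefore often passed the test, and counts within a gene group are read against these shares. The split between directions moved with the scale. TPM is a share of transcripts that corrects for gene length. The CPM values were also scaled by factors that balance the libraries (TMM), and the TPM values were not. These factors were 1.16 and 1.15 with the control guide and 1.07 and 1.07 with the Foxp3 guide. On log2(TPM + 1), 2909 genes (17.5%) were higher and 7526 (45.2%) lower. The median log2 change of all tested genes was 0.02 on the CPM scale and -0.15 on log2(TPM + 1), so list medians are given beside these values.

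**Figure D1:**
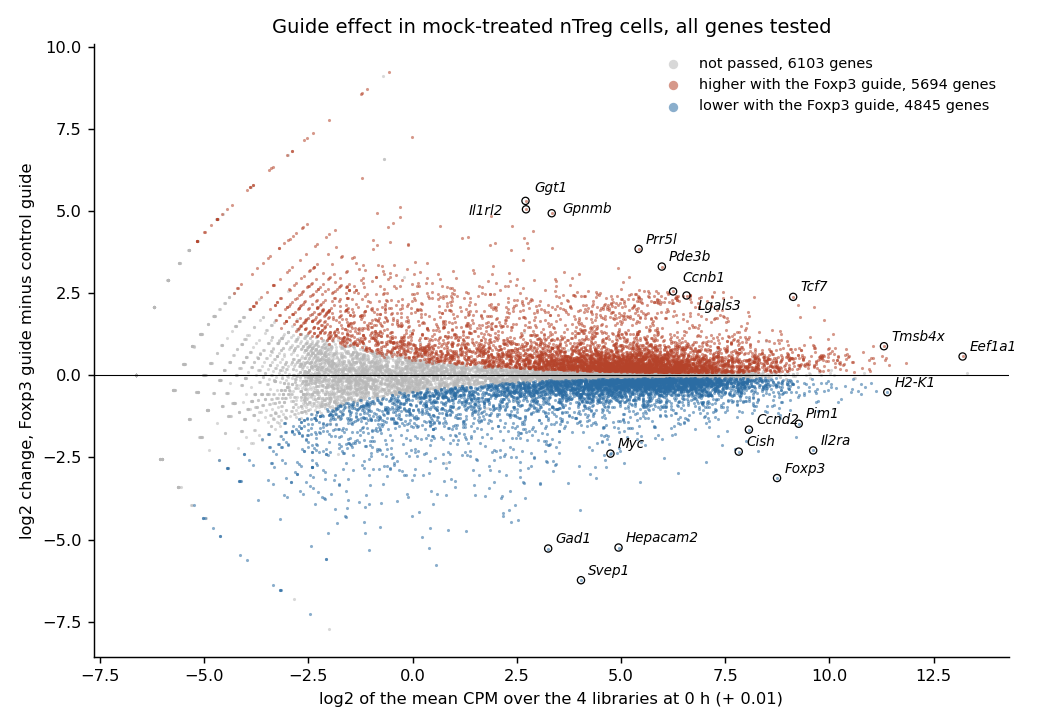
Log2 change of each of the 16642 tested genes (Foxp3 guide minus control guide at 0 h, y axis) against the log2 of its mean CPM at 0 h (x axis), with called and not called genes in separate colours and some named genes labelled. Points lie on both sides of 0 at every level, with 5694 genes called higher and 4845 called lower.

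Genes with short annotated transcripts were shifted upwards against those with long ones. Length was taken as the median over all annotated transcripts of a gene, which may differ from that of the transcript expressed. Among 10971 genes with such a length and at least 100 counts in each library at 0 h, the median log2 change went from 0.20 in the shortest eighth (171 to 660 bases) to -0.13 in the longest (3203 bases and above). On log2(TPM + 1) it went from -0.07 to -0.34, so the trend remained. Medians were lower on that scale than on the CPM scale in every length group. Ribosomal protein genes, which are short and abundant, took 5.73% and 5.80% of the counts with the control guide and 8.03% and 7.84% with the Foxp3 guide. Of 82 such genes found by symbol, 79 were called higher, 3 did not pass and none was lower (median log2 change 0.55, or 0.25 on log2(TPM + 1)). The part of length in any list with a small median was not tested.

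Foxp3 (protein coding, GRCm38 chromosome X, bases 7573644 to 7595245) was at 764 and 776 CPM in the control libraries and 87.6 and 88.4 CPM in the Foxp3-guide libraries. Both edited libraries lay far below both controls, an 8.75-fold lower transcript level. Whether the remaining transcripts carry edits or come from unedited cells cannot be read from gene counts. Its partner factors did not move as a block. Of the 5 Ikaros family genes 4 fell and 1 rose. Ikzf2, which encodes Helios, a factor of Treg stability, went from 669 and 676 CPM to 394 and 400.0 CPM, and Ikzf4 (Eos, a corepressor of Foxp3) changed by -0.67 (SE 0.037), while Ikzf1 (Ikaros) rose by 0.6 log2 units. Of the 4 genes of the Runx factors and their shared subunit 3 rose, led by that subunit's gene Cbfb (0.71), and Runx2 fell by 0.68, with a median of 0.11 that turned to -0.11 on log2(TPM + 1). Of the 11 other partners 2 rose, 6 fell and 3 did not pass. The chromatin organiser gene Satb1 rose from 255 and 258 to 409 and 419 CPM. Gata1 went from 37.6 and 37.6 to 10.5 and 10.2 CPM. Gata3 was not called, with a log2 change of -0.01 and a 95% confidence interval of -0.09 to 0.07.

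The 15 largest falls, Foxp3 among them, were taken from 7148 genes that met a minimum mean of 5 CPM and non-overlap of the groups, and spanned 2.99 to 6.24 log2 units, with adjusted p-values up to 9.3e-17. Because the minimum is on the mean of both guides, a gene high with 1 guide only could enter. What remained of the 14 besides Foxp3 ran from 0.407 CPM (Svep1) to 19.2 CPM (Tnfrsf9) in the edited libraries. The adhesion protein gene Svep1 (chromosome 4, 58042442 to 58206859, minus strand) stood at 31.9 and 33.1 CPM with the control guide and at 0.448 and 0.407 CPM with the Foxp3 guide. Gad1, which makes GABA from glutamate (chromosome 2, 70553072 to 70602014, plus strand), stood at 18.8 and 18.4 against 0.4898 and 0.465 CPM. Hepacam2, an immunoglobulin-family protein gene (chromosome 6, 3457096 to 3498298, minus strand), stood at 59.99 and 59.8 against 1.33 and 1.83 CPM. The 3 genes were 75.96-, 38.9- and 37.9-fold lower. Size of change and non-overlap of the groups were conditions of entry, so these values describe the extremes. Several of the other falls concern cell surface and secreted proteins: C1ql3 (-4.47), the latent TGF-beta binding protein gene Ltbp2 (-4.41), the protein C receptor gene Procr (-3.24), the activin-type receptor gene Acvr1c (-2.99) and the integrin gene Itgb8 (-3.29), in log2 units. Cd83, Tnfrsf9, the junction gene Cgnl1, Pigz, Frmd5 and the exchange factor gene Mcf2l, with Foxp3, complete the 15.

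The 15 largest rises were taken by the same rule, so their groups did not overlap by selection. They started from control levels between 0.306 CPM (Ggt1) and 11.8 CPM (Pde3b). They rose by 3.15 to 5.31 log2 units, with adjusted p-values up to 3.6e-15. Ggt1, the gamma-glutamyl transferase of glutathione breakdown (chromosome 10, 75561604 to 75586200, plus strand), was at 0.335 and 0.306 CPM with the control guide and 13.3 and 12.2 CPM with the Foxp3 guide. Lrrc75b, its neighbour on the opposite strand (chromosome 10, 75550123 to 75560330, minus strand), was at 0.558 and 0.306 against 10.2 and 9.76 CPM. Both members of this adjacent pair were near 0 in the controls and expressed in both edited libraries. Prr5l, which binds the mTORC2 complex (chromosome 2, 101714285 to 101883027, minus strand), went from 5.52 and 5.65 to 79.9 and 80.6 CPM, 14.4-fold higher. Pde3b, a phosphodiesterase that breaks down cAMP (chromosome 7, 114415281 to 114539251, plus strand), went from 11.8 and 11.3 to 113 and 117 CPM, 9.897-fold higher. These 2 reached the highest levels of the 15. The rest included Il1rl2, the receptor chain for IL-36 (5.05), Gpnmb (4.93), the prohormone convertase gene Pcsk1 (4.03), Alox5ap of leukotriene synthesis (3.87), the neuropeptide gene Qrfp (4.4), the lipid flippase gene Atp8b4 (4.19) and the long noncoding RNA Mirt1 (3.87), in log2 units. Hemgn (3.82), Pdlim4 (3.5), Phldb1 (3.27) and the matrix gene Fbln1 (3.15) complete the list.

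In share of the transcript pool, the 10 largest losses and gains were taken among called genes, leaving out mitochondrial genes, numbered gene models, pseudogenes and receptor segments. Among the losses, the class I heavy chain gene H2-K1 went from 6666 and 6443 TPM to 3822 and 3846 TPM. Pim1, a kinase gene induced by STAT5, went from 1159.8 and 1120.2 to 336 and 341 TPM. The others included H2-D1, H2-Q7, Shisa5, Ly6e, Ddx5, the interferon gamma receptor gene Ifngr1 and Samhd1, and the 10 together went from 22025 to 12834 TPM as group means. Among the gains, Tmsb4x, which sequesters actin, went from 5641 and 5469 to 8302 and 8466 TPM, and the elongation factor gene Eef1a1 from 10759 and 10815 to 13072 and 13256 TPM. Rps29, Rpsa, Rplp1, Rps12, Rpl41, Rpl10 and Ppia were among the rest. Of the mitochondrial genes left out, mt-Atp8, singled out after its values were seen, had a larger difference of means than Tmsb4x, but its groups overlapped in TPM (16022 and 12629 against 15867 and 18553 TPM). Several ribosomal protein genes have near-identical processed copies, so their counts are less certain.

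Receptor chains, STAT5 genes and feedback inhibitors of the IL-2 pathway were lower with the Foxp3 guide. Il2ra, the chain that gives the receptor its high affinity, was at 1285 and 1311 CPM with the control guide and 262 and 269.9 CPM with the Foxp3 guide. Il2rb, the signalling chain shared with IL-15, was at 1138 and 1155 against 543 and 539 CPM. Il2rg, the chain common to the family, was at 524 and 518 against 399 and 413 CPM. Every edited library was below every control library for the 3 chains, with folds of 4.88, 2.12 and 1.28. Il4ra, Il15ra, Il21r and Il9r did not pass, and Il7r, the receptor chain that marks conventional T cells, was the one receptor gene of 8 called higher, at 621 and 609 against 771 and 799 CPM. Its change was 0.35 on the CPM scale and 0.08 on log2(TPM + 1).

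Of 7 STAT genes 5 fell and none rose, where 29.1% of all tested genes fell and 34.2% rose. Stat5a went from 187 and 199 to 70.4 and 69.6 CPM and Stat5b from 408 and 412 to 271 and 266 CPM. Stat5a thus fell 2.76-fold and Stat5b 1.53-fold, with no overlap of libraries. Stat3 (-0.93) and Stat6 (-0.59) were among the others that fell. Among the kinases Jak3, the partner of the common chain, fell by 0.34, Jak1 did not pass, and Jak2 rose from 112 and 117 to 202 and 209.9 CPM. The feedback inhibitors of cytokine signalling, Cish and the Socs genes, all fell: 8 of 8 genes, against 29.1% of all tested genes. Their median log2 change was -0.84. Cish was at 378 and 378 CPM with the control guide and 74.7 and 76.3 CPM with the Foxp3 guide. Socs1 was at 34.7 and 39.8 against 10.01 and 8.76 CPM. Both groups were tight and apart for each gene. Socs3 changed by -1.35 and Socs2 by -1.08, and Socs4 to Socs7 by -0.20 to -0.60.

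**Figure D2:**
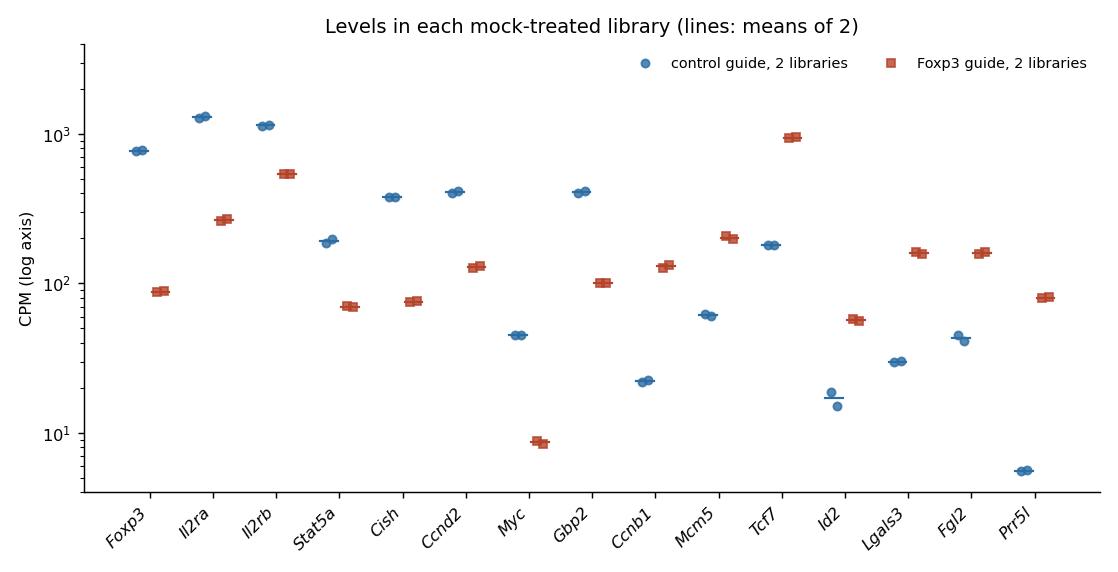
Level of 15 genes in each of the 4 libraries at 0 h (CPM, log axis), 1 point per library and 1 colour per guide. For every gene shown the 2 libraries of a guide lie close together and apart from the other guide, with Foxp3, Il2ra, Cish, Myc and Gbp2 lower and Tcf7, Id2, Ccnb1, Lgals3, Fgl2 and Prr5l higher with the Foxp3 guide.

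The receptors that characterise Treg cells were mostly lower. Of 16 tested genes 11 fell, 3 rose and 2 did not pass (median log2 change -0.74). Izumo1r, the folate receptor family gene FR4, went from 134 and 133 to 49.2 and 48.7 CPM. Ctla4, the inhibitory receptor that removes CD80 and CD86 from other cells, went from 614 and 563 to 404 and 423 CPM. Ctla4 thus remained among the more abundant of these transcripts and fell 1.42-fold, less than Izumo1r (2.72-fold). Il1r2, the decoy receptor for IL-1, changed by -2.83 and Gpr83 by -2.78. The 3 that rose were Il1rl1, the IL-33 receptor ST2 (0.91), Il18r1 (0.66) and the inhibitory receptor gene Tigit (0.66). Havcr2 (-0.43) and Klrg1 (-0.77) did not pass.

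Most genes of suppressive mediators fell. Entpd1 (CD39), which removes phosphates from extracellular ATP, went from 93.3 and 98.8 to 39.3 and 41.4 CPM, and Nt5e (CD73), which completes the step to adenosine, from 587 and 543 to 365 and 425 CPM. Both enzyme genes were lower in each edited library, 2.38- and 1.43-fold. For TGF-beta, the cytokine gene Tgfb1 (-0.48), the docking protein gene Lrrc32 or GARP (-0.94) and the activating integrin gene Itgb8 fell, the last from 24.3 and 23.8 to 2.45 and 2.46 CPM. Its partner Itgav rose by 0.5, and the receptor genes Tgfbr2 (not called on log2(TPM + 1)) and Tgfbr3 rose by 0.39 and 1.28 while Tgfbr1 fell by 0.95. Among 6 secreted mediators, Il10 (-0.91), Penk (-0.87), Ebi3 (-0.39) and Il12a fell. Il12a had 18 and 16 counts in the control libraries and 1 and 3 in the edited ones, so its size of change is imprecise. Areg did not pass (-0.44, adjusted p = 0.52). Fgl2, a secreted fibrinogen-like suppressor protein, was the member that rose, from 45.2 and 41.4 to 157 and 163 CPM.

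Of 15 TNF receptor genes 8 fell, 6 rose and Fas did not pass, and on log2(TPM + 1) 10 were lower and 3 higher. Tnfrsf9 (4-1BB) went from 144 and 149.8 to 17.8 and 19.2 CPM, Tnfrsf4 (OX40) from 189 and 182 to 84.3 and 83.2 CPM and Tnfrsf18 (GITR) from 399.8 and 382 to 226 and 219.8 CPM. These costimulatory receptors, with Tnfrsf8 (-1.9), Tnfrsf1b (-1.13) and Cd27 (-0.85), were lower in both edited libraries. The risers were led by Tnfrsf21, or death receptor 6 (2.51). The lymphotoxin beta receptor gene Ltbr (1.98) was at 0.0893 and 0.0815 against 0.4198 and 0.262 CPM, and its call was lost on log2(TPM + 1). Among 12 ligand genes there were 5 rises and 4 falls, against 5 rises and 6 falls on log2(TPM + 1). For both roles the shares of all tested genes were 34.2% higher and 29.1% lower on the CPM scale. Cd40lg, the helper signal to B cells, rose from 3.02 and 3.14 to 6.63 and 7.26 CPM. Tnfsf14 (2.96), Fasl (1.91), Tnfsf4 (1.24) and Tnfsf13b (0.83) also rose, and Tnfsf10 (-0.94), Ltb (-0.56) and Lta (-0.5) were among those that fell.

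Genes of the TCR machinery moved in both directions. Among 22 proximal kinases and adaptors there were 13 rises, 4 falls and 5 genes not passed on the CPM scale, but 8 rises and 13 falls on log2(TPM + 1), where the median log2 change turned from 0.17 to -0.11. Zap70, the kinase that binds phosphorylated TCR chains, rose from 72.7 and 76.6 to 154 and 145 CPM. The phosphatase gene Ptpn22, a brake on the same step, rose from 93.3 and 89.7 to 199.6 and 204 CPM. The kinase gene was 2.01-fold and the phosphatase gene 2.21-fold higher, both without overlap of libraries. In the receptor complex Cd3d and Cd3g each rose by 0.46, the costimulatory receptor gene Cd28 by 0.84, and Cd247 (the zeta chain) fell by 0.35. Among 9 anergy-related genes, the ubiquitin ligase gene Nedd4 fell from 42.6 and 40.997 to 6.395 and 7.52 CPM. In all 2 of them rose, 4 fell and 3 did not pass.

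Inducible activation factors were lower or not called, and none of the 35 genes in the AP-1, EGR and NR4A, and NF-kappaB lists was called higher. The EGR and NR4A list also held Myc, Ier2, Ier3 and Ier5. Of 11 AP-1 genes 6 fell, of the 10 genes in the EGR and NR4A list 7, and of 14 NF-kappaB genes 11, against 29.1% of all tested genes. Jun went from 112 and 119.8 to 33.8 and 31.7 CPM and Fos from 2.43 and 2.73 to 1.15 and 1.08 CPM. Nr4a1, a reporter of recent TCR signalling, went from 16.2 and 17.5 to 11.7 and 11.8 CPM. The edited libraries were below the controls for all 3. Fosb (-1.19), Junb (-1.04), Nr4a2 (-1.2) and Nr4a3 (-1.05) fell as well, while Jund, Fosl2, Atf4, Egr2 and Egr3 were among those that did not pass. In the NF-kappaB list Bcl3 (-1.53), the inhibitor gene Nfkbia (-0.98), Rel (-0.78) and Nfkbiz (-0.78) fell, and Nfkb1 did not pass.

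Feedback inhibitors of the ERK kinases moved in both directions, 4 higher and 6 lower of 10. Dusp4, a nuclear phosphatase for ERK, fell from 49.8 and 55.6 to 11.2 and 10.4 CPM, and Dusp6, its cytoplasmic relative, rose from 3.395 and 3.73 to 13.9 and 14.4 CPM. The change was -2.29 for the former and 1.98 for the latter, in log2 units. Spry2 (-1.48), Spred1 (-0.98) and Spry1 (-0.8) fell and Dusp1 (0.69) rose. NFAT and calcineurin genes went both ways, 5 higher and 4 lower of 10 (1 and 6 on log2(TPM + 1)), with Nfat5 at -1.08 and the calcineurin subunit gene Ppp3cc at 0.5.

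In the PI3K and mTOR pathways the kinases themselves moved little and a few regulators moved far. Prr5 (Protor-1) rose from 0.2904 and 0.224 to 0.924 and 1.03 CPM and so joined its relative Prr5l above. Deptor, an inhibitor of mTOR, rose by 1.35, and Sesn1, a stress sensor upstream of mTORC1, fell by 0.98. Mtor itself fell by 0.26, and the scaffold genes Rictor and Rptor did not pass, with log2 changes of -0.02 and -0.01. Of 11 genes of PI3K and its brakes 5 rose, 5 fell and Pik3cd did not pass, all between -0.54 (Phlpp1) and 0.35 (Akt1), the latter without a call on log2(TPM + 1), where none of the 11 rose and 7 fell. Among 10 enzymes that make or break cyclic nucleotides 6 rose and 4 fell. Those that break down cAMP led the rises, with Pde3b above and Pde4a going from 13.6 and 13.4 to 33.3 and 32.9 CPM. The cyclase genes Adcy3 (-0.5) and Adcy6 (-0.54) fell. Medians of these roles lay between 0.02 and 0.26 and were below 0 on log2(TPM + 1), so no direction is given for them as groups.

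Factors of T cell state moved one by one. Tcf7, which encodes TCF-1 of naive and memory T cells, rose from 179 and 181 to 936 and 947 CPM, and Lef1, its close relative, from 170.3 and 168 to 301 and 311 CPM. Id2, an inhibitor of E proteins linked to effector cells, rose as well, from 18.9 and 15.2 to 58.1 and 55.9 CPM. The 3 genes were 5.23-, 1.81- and 3.34-fold higher, with no overlap. Id3, the usual counterpart of Id2, did not pass (0.09, 95% confidence interval -0.02 to 0.19). Foxo1 (-0.49) and Klf2 (-0.37), other factors of the resting state, fell, so the naive-state list held 4 higher, 5 lower and 4 not passed of 13. That is 30.8% higher and 38.5% lower, against 34.2% and 29.1% of all tested genes. In the effector-state list 8 of 13 fell, 3 rose and 2 did not pass. Myb, which supports effector Treg cells, went from 42.3 and 41.95 to 9.698 and 10.2 CPM, and Prdm1 (Blimp-1) changed by -0.77. Of the helper lineage factors, Tbx21 (T-bet) rose from 1.23 and 0.999 to 4.11 and 3.93 CPM and Bcl6 by 0.74 in log2 units, while Gata3, Rora and Pparg were among those that did not pass.

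Helper cytokine transcripts stayed scarce without restimulation. Il4 had 1 and 4 counts in the control libraries and 81 and 95 counts in the edited ones, or 0.0223 and 0.0815 against 1.13 and 1.38 CPM. Il2, which Foxp3 represses in Treg cells, had 3 and 6 counts against 14 and 38 counts. Both were called higher, and no library exceeded 1.38 CPM for either. The Il2 call was lost without control replicate 1 (log2 change 1.59) or Foxp3-guide replicate 2 (1.02). Csf1 (-1.65), Tnf (-1.03) and Lif (-0.38) fell. The other 11 of 16, Ifng and Il17a among them, did not pass.

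Homing receptors moved in both directions. Cxcr6 rose from 11.3 and 10.3 to 51.8 and 55.3 CPM, Ccr8 from 14.5 and 14.5 to 50.4 and 52.03 CPM and Ccr2 from 72.5 and 68.4 to 233 and 242 CPM. Cxcr5, the receptor for B cell follicles, fell from 10.4 and 10.7 to 1.48 and 1.396 CPM, Ccr6 from 12.9 and 12.1 to 2.001 and 1.66 CPM and Ccr9, the receptor for the gut, from 1.43 and 2.28 to 0.112 and 0.0727 CPM. The libraries of the 2 guides did not overlap for any of the 6. Ccr7 and Cxcr4, the most abundant chemokine receptor transcripts, did not pass (-0.07 and -0.08). Gpr183, which positions cells within lymph nodes, rose by 1.56. Of 14 chemokine receptors 5 rose (35.7%), 6 fell (42.9%) and 3 did not pass, against 34.2% and 29.1% of all tested genes called higher and lower.

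Among integrins, Itgae (CD103), which binds E-cadherin on epithelium, fell from 514 and 529 to 106 and 105 CPM. Its partner chain gene Itgb7 fell by 0.27. The fall was 4.97-fold for Itgae and 1.203-fold for Itgb7. Itga2 (1.32), Itgb5 (1.05), Itgb3 (0.99) and Itgal of LFA-1 (0.71) rose. Other adhesion genes rose in 5 of 7 cases, with Ly6c2 (3.2), Ly6a (1.01), Icam2 (0.88) and Ly6c1 (0.71) among them. Ly6c2 and Ly6c1 are closely related copies, and counts may be shared between them.

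G1 cyclin and kinase genes moved in both directions: of 9 genes 5 rose and 4 fell (median log2 change 0.40). Myc, a growth factor target that drives cell cycle entry, was at 44.8 and 45.4 CPM with the control guide and 8.84 and 8.41 CPM with the Foxp3 guide. Ccnd2 (cyclin D2), which STAT5 and Myc induce, was at 400.5 and 415 against 127 and 132 CPM, and its kinase partner Cdk6 at 180.2 and 184 against 74.6 and 77.9 CPM. All 3 were lower in both edited libraries, 5.23-, 3.15- and 2.38-fold. Cdk4, the other kinase partner of the D-type cyclins, rose by 0.4. Of the genes that act later in G1, Ccne2 (cyclin E2) went from 8.29 and 8.13 to 29.3 and 32.6 CPM, and Ccne1 (0.99), Cdk2 (0.78) and Cdc25a (0.78) rose too.

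Inhibitors of G1 progression were also mostly higher. Of 9 such genes 6 rose, 2 fell and Rbl2 did not pass (median log2 change 0.65). Cdkn2c (p18), which blocks CDK4 and CDK6, rose from 27.2 and 26.7 to 112 and 107 CPM, and Cdkn2a, the p16 and p19ARF locus, from 1.85 and 1.81 to 9.35 and 8.55 CPM. Rb1, the retinoblastoma gene, rose from 125 and 122 to 251 and 255 CPM. Every edited library exceeded every control library for these 3. Cdkn1b (p27) fell by 0.27 and Cdkn1a (p21) rose by 0.45. Of 10 E2F factors and partners 9 rose (median 0.84). E2f8, a repressor that acts late in S phase, rose from 16.1 and 16.8 to 85.3 and 85.7 CPM, E2f7 by 2.07 and the activator gene E2f1 by 1.63. E2f5 fell by 0.62.

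DNA replication genes rose at almost every step. Of 56 genes 49 rose, 3 fell and 4 did not pass, against 34.2% and 29.1% of all tested genes called higher and lower, with a median log2 change of 1.34 (0.98 on log2(TPM + 1)). All 17 licensing genes, which load and fire the replicative helicase, rose, and 16 did on log2(TPM + 1), where Mcm6 did not pass. Mcm10 went from 10.3 and 10.6 to 50.04 and 46.2 CPM and Orc1, a subunit of the origin recognition complex, from 2.28 and 2.304 to 10.1 and 10.3 CPM. Mcm3 went from 58.7 and 60.5 to 177 and 169.9 CPM. The 3 were 4.61-, 4.44- and 2.91-fold higher, and Mcm6 rose by 0.28 in log2 units, the smallest licensing change. All 20 synthesis genes rose. Top2a, which untangles replicated DNA, went from 215 and 231 to 989 and 993 CPM, and Pcna, the polymerase clamp, from 126 and 127 to 313 and 322 CPM. Prim1 (2.06), the histone chaperone gene Chaf1a (1.91) and Rfc4 (1.87) were the other large rises.

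Nucleotide supply genes moved in both directions. Rrm2, the limiting subunit of ribonucleotide reductase, rose from 57.5 and 55.4 to 289 and 290.5 CPM, Tyms, which makes thymidylate, by 1.96 and Rrm1 by 1.8. Cad, which starts pyrimidine synthesis, fell by 0.27, and Gart of purine synthesis fell by 0.26. Atic, Mthfd1, Shmt1 and Shmt2 did not pass. The 19 genes of this role held 12 rises, 3 falls and 4 not passed.

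Mitosis genes had the highest median change of the 21 gene lists. Of 65 genes 64 rose and 1 did not pass, with a median log2 change of 2.30 (1.97 on log2(TPM + 1)). From the lower to the upper quartile, the rises spanned 3.86- to 5.28-fold. Together they took 2641 and 2638 TPM in the control libraries and 7012 and 7091 TPM in the edited libraries. For 65 of 65 the libraries of the 2 guides did not overlap, the gene that did not pass included. With 2 libraries per guide, non-overlap is a weak criterion, and its share over all tested genes is not given here. Ccnb1 (cyclin B1; chromosome 13, 100778650 to 100786570, minus strand) and its kinase partner gene Cdk1 stood at 21.9 and 22.5 and at 20.97 and 21.8 CPM with the control guide. With the Foxp3 guide Ccnb1 stood at 127 and 133 CPM and Cdk1 at 116 and 119 CPM. Ccna2 (cyclin A2) rose from 52.2 and 51.2 to 294 and 303 CPM. In the spindle and kinetochore role 27 of 27 rose: Ect2, which positions the cleavage furrow, went from 13.9 and 13.6 to 81.1 and 79.9 CPM and Hmmr, a spindle protein, from 20.1 and 20.9 to 117 and 119 CPM. Of 20 genes of mitotic exit and cohesion 19 rose. Ube2c, the ubiquitin donor of the anaphase-promoting complex, went from 18.2 and 17.7 to 102 and 100.1 CPM, and Birc5 (survivin) from 38.5 and 37.8 to 194 and 197 CPM. The member that did not pass was Smc4, a condensin subunit already at 1013 and 1018 CPM in control cells and at 1041 and 1075 CPM in edited cells (log2 change 0.06, 95% confidence interval -0.03 to 0.14, adjusted p = 0.22).

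Because the mitosis genes rose together, the promoters of Ect2, Ccnb1 and Hmmr are shown as 3 of the members with the largest rises. For Ect2, which has 2 starts in the RefSeq table, 1 is shown. Each runs from 250 bases before to 30 bases after the RefSeq start (GRCm38.p6, minus strand of the genome, written 5′ to 3′ in the direction of the gene). Capitals mark 2 short motifs of cell cycle promoters in either orientation: TTTGAA (or TTCAAA), the core of the CHR element bound by the DREAM and MuvB complexes, and CCAAT (or ATTGG), the box bound by NF-Y.
Ect2 (chr3:27153849-27154128): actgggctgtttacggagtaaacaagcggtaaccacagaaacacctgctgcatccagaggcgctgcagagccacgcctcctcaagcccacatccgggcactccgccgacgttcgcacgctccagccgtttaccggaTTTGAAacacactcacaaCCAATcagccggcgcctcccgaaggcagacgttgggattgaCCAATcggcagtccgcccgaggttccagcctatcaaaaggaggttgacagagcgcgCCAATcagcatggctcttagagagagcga
Ccnb1 (chr13:100786457-100786736): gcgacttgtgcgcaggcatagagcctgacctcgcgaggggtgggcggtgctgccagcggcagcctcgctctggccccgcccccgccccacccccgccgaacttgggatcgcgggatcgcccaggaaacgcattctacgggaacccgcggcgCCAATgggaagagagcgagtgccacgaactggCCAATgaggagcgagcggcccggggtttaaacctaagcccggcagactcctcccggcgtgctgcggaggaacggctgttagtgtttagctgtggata
Hmmr (chr11:40733408-40733687): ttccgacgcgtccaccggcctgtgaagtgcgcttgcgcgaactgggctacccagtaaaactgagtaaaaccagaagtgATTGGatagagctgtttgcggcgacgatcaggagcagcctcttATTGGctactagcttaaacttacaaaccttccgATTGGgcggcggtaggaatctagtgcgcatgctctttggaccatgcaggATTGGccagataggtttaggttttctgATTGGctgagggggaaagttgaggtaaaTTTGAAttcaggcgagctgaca

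In these windows the Ect2 promoter held 1 TTTGAA and 3 CCAAT matches (the window of its other listed start, chr3:27153825-27154104, held 2 and 3), that of Hmmr 1 and 5, and that of Ccnb1 none and 2. Of 65 mitosis genes 55 had at least 1 entry in the promoter table, 58 promoters in all. TTTGAA was found in 33 of these 58 (56.9%), against 11.8% of 13866 promoters of tested genes and 17.2% of all 32851 promoters. CCAAT was found in 40 (69.0%), against 36.8% and 36.1%, and both motifs in 28 (48.3%), against 4.67% of promoters of tested genes. The 31 mitosis genes with TTTGAA had a median log2 change of 2.30 and the 24 without it 2.24, so the size of the rise was nearly the same in both. For 54 promoters of 47 DNA replication genes, an E2F-type site (TTTGGCGC, TTTGGCGG or TTTCCCGC, either strand) was found in 12 (22.2%), against 3.36% of promoters of tested genes. The lists were chosen by function with earlier results known, and their motif shares would be the same without any guide effect. Whether the motifs have a part in the rises was not tested. A match describes the letters in the window and does not show that a factor binds there. Only exact matches to these letters were searched, so a window without a match may still hold another form of the element.

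**Figure D3:**
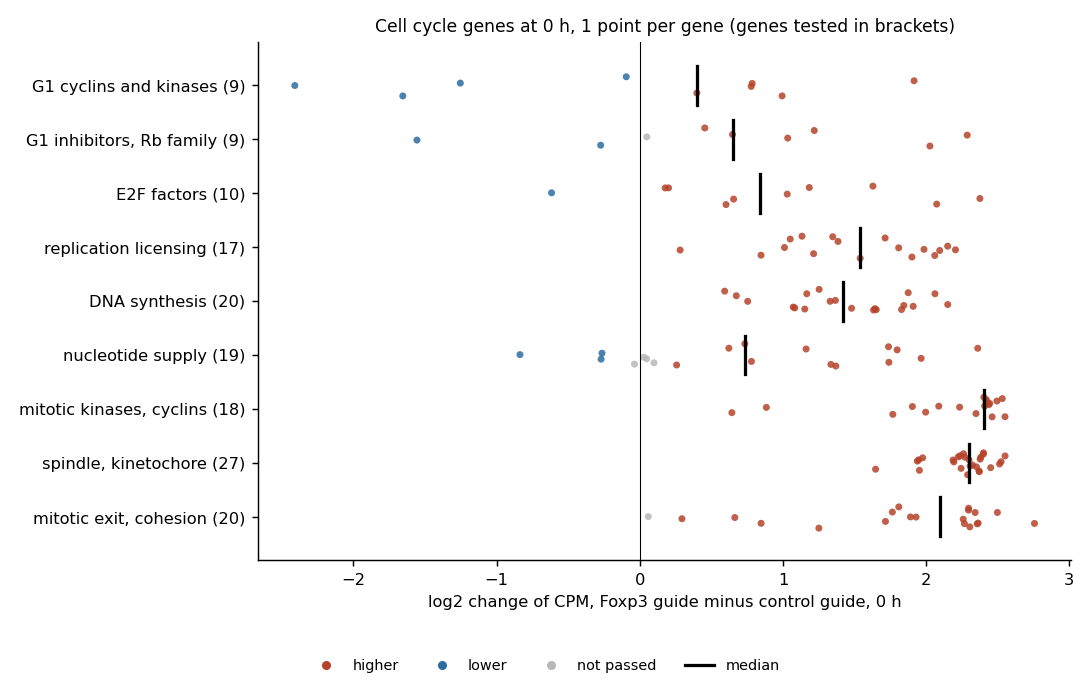
Log2 change (Foxp3 guide minus control guide at 0 h, x axis) of each gene of 9 roles of the cell cycle, 1 point per gene, with bars at the role medians. G1 cyclins and kinases lie on both sides of 0, while the licensing (median 1.54), synthesis (1.42) and mitosis roles (2.09 to 2.41) lie above 0 in nearly every member.

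Chromatin regulators moved in both directions, and their counts are set beside 34.2% of all tested genes called higher and 29.1% lower. Of 10 DNA methylation genes 4 rose, 4 fell and 2 did not pass (median -0.04), and on log2(TPM + 1) 2 were higher and 7 lower. Of 12 Polycomb genes 4 rose, 6 fell and 2 did not pass (median -0.14), and on log2(TPM + 1) 2 were higher and 8 lower. Uhrf1, which brings the maintenance methyltransferase to new DNA, rose from 44.4 and 44.4 to 191 and 185 CPM, and that enzyme's gene Dnmt1 rose from 128 and 134 to 394 and 390.4 CPM. Both were higher in each edited library. Ezh2, the Polycomb methyltransferase, rose from 54.4 and 52.1 to 142 and 147 CPM, and Kdm6b, a demethylase for the same mark, fell from 90.3 and 93.6 to 26.9 and 24.8 CPM. The log2 changes were 1.44 for Ezh2 and -1.83 for Kdm6b, without overlap of libraries. All 10 variant histone and high mobility group genes rose (median 1.03), with Hmgb2 going from 286 and 274 to 954 and 979 CPM and H2afx rising by 1.94 in log2 units.

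The p53 list of 15 genes held 13 rises, 1 fall and 1 gene not passed, with a median of 0.45, but 7 rises and 3 falls on log2(TPM + 1), with a median of 0.17. The fall was that of Trp53 itself (-0.09), whose call was lost when any 1 library was left out (-0.06 to -0.10, adjusted p = 0.080 to 0.28). Eda2r rose from 0.536 and 0.612 to 1.25 and 1.43 CPM and Bax, a pore-forming killer protein gene, by 0.5. In the BCL-2 family the survival genes Bcl2l1 (-0.52), Mcl1 (-0.46) and Bcl2 (-0.26) fell. The killer genes Bak1 (0.66), Bik (1.21) and Bcl2l11 or Bim (0.35) rose, the last without a call on log2(TPM + 1), and Bid (-0.96) fell.

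Metabolic genes changed by smaller amounts, with contrasts inside the pathways. Slc2a3, a glucose transporter gene, fell from 111 and 109.7 to 36.5 and 36.6 CPM and Hk2, which traps glucose in the cell, from 4.11 and 4.85 to 1.99 and 1.82 CPM. Pgk1, of the energy-yielding steps of glycolysis, rose from 139.7 and 139.7 to 374 and 376 CPM. Eno1 (0.93), Gapdh (0.83) and Ldha (0.76) rose too. The glycolysis list held 12 rises, 5 falls and 6 not passed of 23, but 7 rises and 8 falls on log2(TPM + 1), where its median turned from 0.15 to -0.09. Respiratory chain genes rose in 14 of 15 (complex I, median 0.36) and 17 of 18 cases (complexes II to V, median 0.42), but on log2(TPM + 1) complex I had 5 rises and 3 falls (median 0.07) and complexes II to V 10 rises and 3 falls (median 0.14). Among 13 mitochondrially encoded protein genes there were 6 rises and 1 fall, against 5 rises and 4 falls on log2(TPM + 1). In lipid synthesis Fads2, a desaturase of polyunsaturated fats, rose from 1.698 and 1.73 to 10.3 and 11.2 CPM, and Scd1, the desaturase of saturated fats, fell from 3.28 and 3.55 to 1.25 and 1.34 CPM. Fasn changed by -0.74, and the cholesterol gene Idi1 by 1.4.

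Ribosome assembly factors and ribosomal proteins moved apart. Of 22 ribosome biogenesis genes 16 fell, 4 rose and 2 did not pass (median -0.32, or -0.57 on log2(TPM + 1)). Polr1b, a subunit of RNA polymerase I, fell from 15.8 and 17.02 to 7.81 and 7.17 CPM, and Nolc1 (-0.76), Gnl3 (-0.66) and Mybbp1a (-0.63) fell. The 4 that rose were Wdr12 (1.63), Npm1 (0.79), Fbl (0.33) and Ncl (0.31), of which Fbl and Ncl had no call on log2(TPM + 1), where 2 genes rose and 18 fell. The proteasome list rose in 22 of 23 genes (median 0.36), but on log2(TPM + 1) 9 rose, 1 fell and 13 did not pass (median 0.08).

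Interferon-stimulated genes moved in both directions. All 4 guanylate-binding protein genes of the list, GTPases that attack vacuoles of pathogens, fell: Gbp2 went from 403 and 413 to 101 and 101 CPM, Gbp3 from 278 and 283 to 64.4 and 64.03 CPM, and Gbp7 changed by -1.86 and Gbp4 by -0.97 in log2 units. The membrane proteins Ifitm1 (1.7) and Ifitm2 rose, the latter from 31.7 and 31.5 to 104 and 106 CPM, as did the RNA sensor gene Oas3 (1.46). Usp18, the brake on the type I interferon receptor, fell by 1.98, and Isg15, Ifit3 and Rsad2 did not pass. The list held 13 rises, 10 falls and 3 not passed of 26 (11 and 11 on log2(TPM + 1)), and its median of 0.25 was -0.05 on log2(TPM + 1), so no direction is given for it as a whole. Class I antigen presentation was lower: 7 of 10 genes fell and 3 did not pass, where 29.1% of all tested genes fell. The list's sum went from 15484 and 15134 TPM to 10253 and 10426 TPM. The median log2 change was smaller on the CPM scale (-0.22) than on log2(TPM + 1) (-0.49). Nlrc5, the transactivator of class I genes, fell by 0.86, and B2m did not pass. Class I heavy chains are closely related in sequence, so reads may be shared between them.

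The GIMAP genes, GTPases of lymphocyte survival that lie in a cluster, fell in 8 of 8 cases, against 29.1% of all tested genes. Gimap5 (-1.01) and Gimap7 (-0.97) led the falls. Galectin, S100 and annexin genes, many of them raised in activated and tissue T cells, rose in 14 of 15 cases (median 0.80, or 0.49 on log2(TPM + 1)). Lgals3 (galectin-3) rose from 29.6 and 30.1 to 163 and 158 CPM and S100a4 from 25.02 and 23.1 to 80.8 and 81.6 CPM. Anxa2 rose by 1.85 and Anxa1 by 1.53, while the large scaffold gene Ahnak fell by 0.43 (adjusted p = 0.02) and did not pass without control replicate 2 (-0.33) or without Foxp3-guide replicate 1 (-0.44) or 2 (-0.40). Cytotoxic genes split: Gzmb (1.58), Gzma (1.71) and Nkg7 (1.85) rose, and the pore-forming protein gene Prf1 (-2.43), Ctsw (-1.02) and the granzyme B inhibitor gene Serpinb9 (-1.31) fell.

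**Figure D4:**
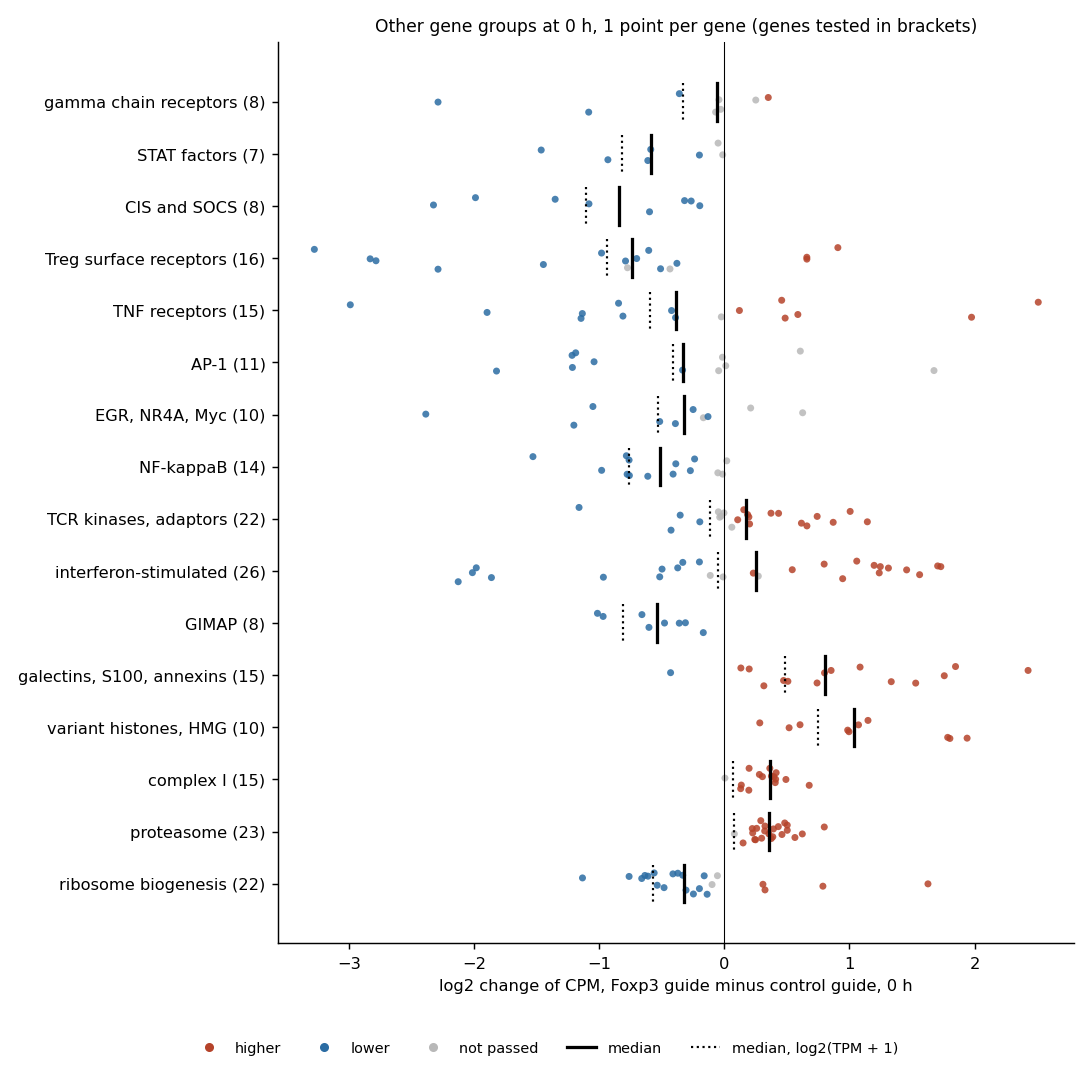
Log2 change (Foxp3 guide minus control guide at 0 h, x axis) of each gene of 16 roles of immune signalling, surface and growth, 1 point per gene, with solid bars at the median on the CPM scale and dotted bars at the median on log2(TPM + 1). Cytokine feedback inhibitors (median -0.84) and GIMAP genes (-0.54) lie wholly below 0, and dotted bars lie to the left of solid bars.

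Markers of other cell types were low, with exceptions that moved with the guide. Erythroid markers summed to 10.7 and 9.99 CPM with the control guide and 76.6 and 75.2 CPM with the Foxp3 guide, of which Hba-a1 made up 8.04 and 8.26 against 64.8 and 65.5 CPM, while Alas2 was at 0 and Klf1 and Hbb-bs stayed under 1 CPM in all 4 libraries. B cell markers summed to 953.4 and 952.1 CPM against 258.4 and 262.2 CPM. That sum was almost wholly Ighm (925 and 927 against 249 and 252 CPM). Of the 11 B cell markers, 6 stayed under 1 CPM in all 4 libraries, Ms4a1, Pax5 and Blk among them. Ighd (-2.13), Bank1 (-1.91) and Ebf1 (-1.86) were called lower like Ighm (-1.89), and Cd79b was called higher (0.65), in log2 units. Gamma delta T cell markers summed to 10.9 and 11.2 against 38.1 and 40.6 CPM, with the gamma chain gene Tcrg-C2 at 4.29 and 4.59 against 23.1 and 25.4 CPM. The delta chain gene Trdc did not pass (2.19 and 2.47 against 1.99 and 2.31 CPM), and Sox13 stayed under 1 CPM. Stromal markers summed to 202.2 and 212.1 against 131.3 and 130.6 CPM, nearly all of it Pecam1. CD8, natural killer, myeloid, dendritic, platelet and mast cell lists each summed to less than 10 CPM in every library. The part of other cells in the results was not tested.

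The guide effect at 0 h was compared with that at 3 h of TCR stimulation by the difference between the 2 effects. It was called in 7457 genes (44.8%), with the effect more positive at 3 h in 2960 (17.8%) and more negative in 4497 (27.0%). On log2(TPM + 1) the split was 3044 against 2866, so the balance of directions depended on the scale. Among genes with a large change at 0 h, several rises were larger without stimulation. Prr5l stood at 6.04 and 5.03 CPM with the control guide and 17.3 and 16.7 CPM with the Foxp3 guide at 3 h, so its guide effect was 3.84 at 0 h and 1.61 at 3 h, a difference of -2.23 (SE 0.11). For Pde3b the difference was -1.26 (SE 0.14). Several falls were also smaller after stimulation. Itgb8 stood at 251 and 228 against 123 and 123 CPM at 3 h, and its guide effect went from -3.29 to -0.96 (difference 2.33, SE 0.096). Tnfrsf9, which TCR signals induce, went from an effect of -2.99 to -0.94, Cd83 from -3.28 to -1.34 and Pim1 from -1.48 to -0.50. A fall was deeper at 3 h for the interferon gamma receptor gene Ifngr1, whose effect went from -0.81 to -1.79.

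**Figure D5:**
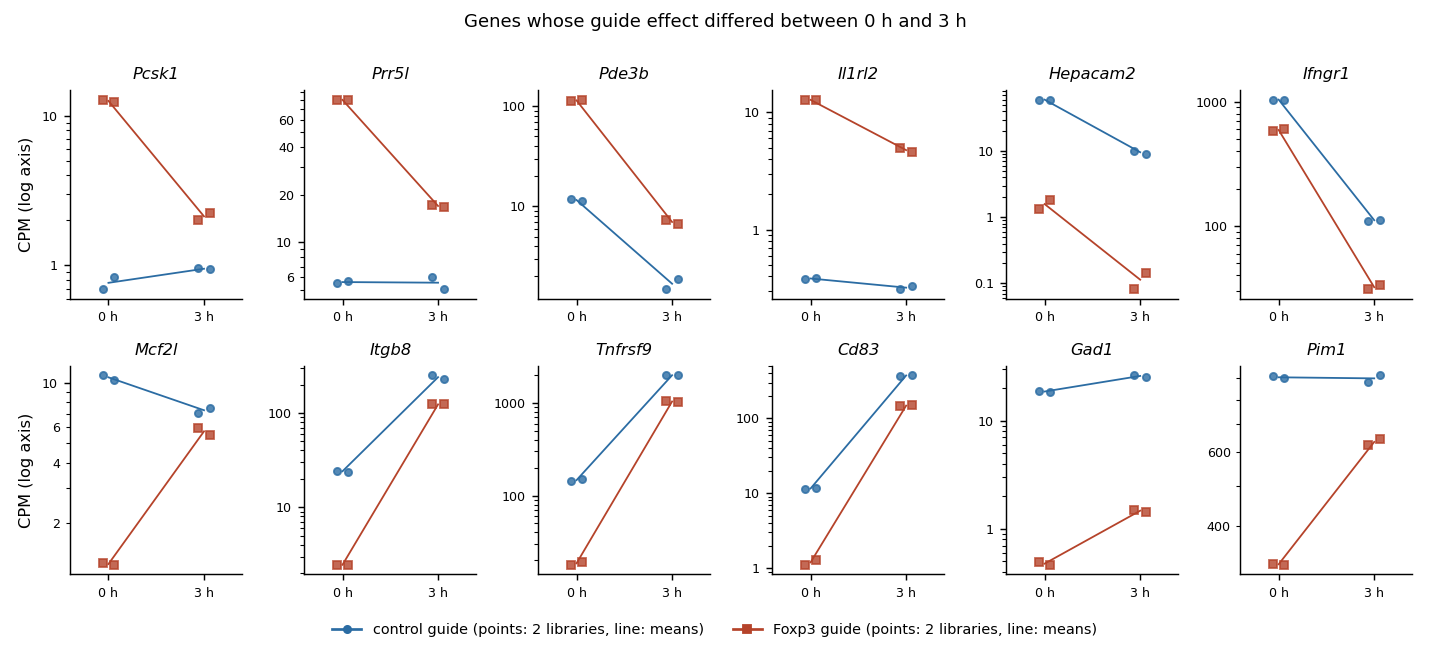
Level (CPM, log axis) of 12 genes in each library at 0 h and at 3 h of TCR stimulation, 1 panel per gene, 1 point per library and 1 colour per guide, with lines joining the group means. The gap between the guides is narrower at 3 h for Itgb8, Tnfrsf9, Cd83, Mcf2l, Pcsk1 and Prr5l and wider for Ifngr1.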

How the data were processed

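Per the submitters' processing notes, the tools were Trim Galore 0.6.3 for trimming, STAR 2.7.9a for alignment and RSEM 1.3.1 for quantification, and the genome was mm10 (GRCm38). Libraries were stranded, per the labels' protocols. The authors deposited 1 table of expected count values per gene and 1 of TPM values per gene, for 8 libraries in 4 groups of 2. The annotation release is not given in the sources used here; 55180 of 55665 gene identifiers matched GENCODE M21, from which coordinates were taken. Every column was matched to a library by its label.

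Expected counts were rounded, filtered with edgeR's filterByExpr and scaled by TMM. A robust quasi-likelihood model (R 4.3.3, edgeR 4.0.16, limma 3.58.1) with 1 mean per group was fitted to all 8 libraries, with 4 residual degrees of freedom, a median prior of 19.1 and a common biological coefficient of variation of 3.41%. Benjamini-Hochberg adjustment ran over all 16642 genes, with calls below 0.05. CPM divides counts by the TMM-scaled library size. The pipeline was tested on simulated data for the guide effect at 0 h: of 50 genes each changed 1.2-, 1.5-, 2- and 4-fold among 16642 it called 54%, 86%, 98% and 98%, and 13 of 181 calls were false. The simulation changed only 200 genes, with directions drawn at random. It therefore does not cover scaling in a comparison where 63.3% of genes were called. The replicates of a group differed by more than sampling noise, with a chi-square per gene of 4.28 and 4.29 at 0 h. All libraries were kept.

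Alternatives were DESeq2 1.42.0, scaling by RLE or by the upper quartile, limma-trend on log2(TPM + 1) or log2(TPM + 0.1), a minimum of 1 CPM in every library at 0 h, no filter, a fit of the 4 libraries at 0 h alone, a replicate block, a threshold of 0.01, and leaving out each library at 0 h. Named genes were Foxp3, the 15 largest rises and 15 largest falls among called genes with a mean of at least 5 CPM and no overlap of groups (without numbered gene models, pseudogenes and receptor segments), the 10 that gained and the 10 that lost most TPM (also without mitochondrial genes), members of 21 gene lists (807 genes, 799 tested) and 11 marker lists, and 12 genes with the largest differences between times. In list roles of more than 12 genes, the 4 largest rises and falls, the 3 highest in TPM and those not passed could be named. Ribosomal protein genes were added by symbol. The members, lists and comparisons were chosen with earlier results of these data known. Promoter sequences came from RefSeq (GRCm38.p6). A few list members are not reported here by name.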

Additional observations from a re-analysis of the deposited data

Results flagged for a closer look

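For 12 genes the guide effect differed between 0 h and 3 h of TCR stimulation by the test of the difference itself (edgeR's quasi-likelihood test, adjusted over 16642 genes). All 12 were selected for the size of this difference from the genes with the largest changes at 0 h, so their values are a description of the extremes.

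The effect was more negative at 3 h for 6 of them, as log2 differences: -2.85 for Pcsk1 (adjusted p = 5.1e-10), -2.23 for Prr5l, -1.26 for Pde3b, -1.17 for Il1rl2 (adjusted p = 0.0061), -1.03 for Hepacam2 (adjusted p = 0.015) and -0.98 for Ifngr1. Pcsk1 stood at 0.692 and 0.836 CPM with the control guide and 12.8 and 12.3 CPM with the Foxp3 guide at 0 h, and at 0.954 and 0.944 against 1.999 and 2.25 CPM at 3 h. Its level in edited cells was thus lower after stimulation, while that in control cells stayed near 1 CPM. Hepacam2 was at 1.33 and 1.83 CPM in edited libraries at 0 h and 0.0816 and 0.146 CPM at 3 h, levels at which its difference is imprecise (SE 0.38).

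The effect was more positive at 3 h for the other 6: 2.74 for Mcf2l, 2.33 for Itgb8, 2.05 for Tnfrsf9, 1.94 for Cd83, 1.13 for Gad1 and 0.97 for Pim1. Tnfrsf9 stood at 144 and 149.8 against 17.8 and 19.2 CPM at 0 h and at 2005 and 2006 against 1043 and 1042 CPM at 3 h. Cd83 stood at 11.4 and 11.7 against 1.11 and 1.28 CPM at 0 h and at 371 and 377 against 146 and 149 CPM at 3 h. In both genes the levels with the 2 guides lay closer together, as a ratio, after stimulation.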

How the results depend on the processing

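Foxp3 and the 49 genes with the largest changes or TPM differences kept direction and call in 637 of 637 values over the refits. These genes were selected as extremes among called genes in the same libraries, so this outcome was largely built in. Of 223 other genes named as called, 211 kept their call in every refit and none changed direction; on log2(TPM + 1) Akt1, Bcl2l11, Fbl, Il7r, Ltbr, Mcm6, mt-Atp8, Ncl and Tgfbr2 no longer passed, and Trp53 did not pass when any library was left out. Of 37 named genes that did not pass, 29 passed under at least 1 other setting, 25 of them as lower on log2(TPM + 1). The split of calls moved with the scale. The guide effect at 0 h had 2909 genes higher and 7526 lower on log2(TPM + 1), with 1197 at least 2-fold, and 2846 higher and 7354 lower on log2(TPM + 0.1). With at least 1 CPM in every library 1199 genes were at least 2-fold, among 12071 tested. RLE scaling gave 5023 higher and 5566 lower, and upper-quartile scaling 4779 and 5886. Genes with an effect more negative at 3 h numbered 2926 with DESeq2, 2866 on log2(TPM + 1) and 2718 on log2(TPM + 0.1). Leaving out each library gave 9419 to 9579 called genes, 5234 to 5282 higher, 4165 to 4336 lower and 2503 to 2570 at least 2-fold, and for the difference between times 6575 to 6779. The difference for Hepacam2 reversed to 1.90 on log2(TPM + 1) and 0.50 on log2(TPM + 0.1), where its low values in edited libraries meet the pseudocount, and was -0.80 (adjusted p = 0.064) without Foxp3 guide replicate 2 at 0 h. That for Gad1 was 0.37 (adjusted p = 0.070) on log2(TPM + 1). Medians of 25 of 67 list roles changed sign under some setting. Of 871 refit medians, 460 moved by at least the spread of the role's median over pairs of libraries. No role stayed within that spread in every refit. Libraries of the same replicate number did not deviate together (correlation -0.03 at 0 h, -0.08 to 0.01 over all group pairs), so the numbers are not taken to pair samples. With the replicate block 10319 genes were called at 0 h, 5597 higher and 4722 lower, and 7240 for the difference between times.

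Groups of 2 libraries limit the error estimate, which is shared over groups, and allow no check for an outlying library. Foxp3-guide libraries were deeper than control libraries at 0 h. Protein levels, editing and cell numbers were not analysed here.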
